A study of Homo sapiens with 6 samples.

Results

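The 10 genes described here are the EGF family ligands *AREG*, *EREG*, *HBEGF*, *BTC*, *TGFA* and *EGF* and the receptors *EGFR*, *ERBB2*, *ERBB3* and *ERBB4*, taken by symbol from the 17177 genes of the deposited table. All 10 were found. The family was chosen by a rule that compares the FPKM of PP with that of PBS in these same libraries, and with those values known, so the differences of the 10 genes between treatments are given as a description and were not tested. NCI-H660, a long-established human line of neuroendocrine prostate cancer, was grown in HITES medium with fetal bovine serum. Wild-type cells were treated with pyrvinium pamoate (PP), an anthelmintic drug, or with PBS as the control, and 3 libraries per treatment were collected on day 3. All 6 libraries come from 1 cell line, and the dose of PP used for these libraries was not given in the sources used here. The labels and a figure legend of the study give 3 samples per treatment while its methods mention duplicates, and all 6 labelled libraries were used.

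The ligands are made as membrane-anchored precursors and are released by proteases of the ADAM family. A released ligand binds a receptor and brings it into a pair with a second receptor, after which the kinases phosphorylate each other and signal through the RAS-ERK and PI3K-AKT routes. AREG, TGFA and EGF bind EGFR, while HBEGF, BTC and EREG bind both EGFR and ERBB4. ERBB2 has no known ligand and acts as a preferred partner, and ERBB3 has a weak kinase and signals through its partner.

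Values are FPKM, which corrects fragment counts for gene length and library size, so levels of different genes can be set side by side. Whole counts were recovered from the FPKM values with a tolerance of 0.01 of a count, and summed to between 29064253 and 32481171 per library. Compared pairwise by chi-square over degrees of freedom, counts gave 3.37 to 7.07 for libraries that shared a treatment and 149.2 to 170.2 for libraries that did not. The study calls the samples of a treatment independent, but the labels do not say that they were separate cultures, so p-values measure only the spread between these samples. Of the markers of the labelled cell type, *SYP*, *CHGA*, *NCAM1*, *ENO2* and *INSM1* were all present, with a summed FPKM of 169.7 to 180.1 with PBS and 139.7 to 153.7 with PP. Of these 5, *INSM1* was higher in every PP library than in any PBS library, *SYP*, *CHGA* and *ENO2* were lower and *NCAM1* overlapped. *CHGA*, which encodes chromogranin A, had a mean of 43.3 ± 0.870 (SD, n = 3) in PBS libraries and 24.8 ± 1.09 (SD, n = 3) in PP libraries. Markers of other cells were lower than these. The summed FPKM of 3 luminal prostate markers was 1.65 to 2.18 with PBS and 0.615 to 1.02 with PP, that of 3 basal markers 0.138 to 0.20 and 0.0553 to 0.0741, that of 4 fibroblast markers 4.0 to 4.4 and 4.42 to 4.79, that of 2 leukocyte markers 1.3 to 1.55 and 0.851 to 1.25, and that of 2 endothelial markers 3.38 to 3.98 and 2.27 to 2.79. *KRT14*, *DCN*, *LUM*, *PTPRC* and *PECAM1* were under an FPKM of 0.1 in every library. *COL1A1* made up most of the fibroblast sum, with a mean of 3.30 with PBS and 4.16 with PP. *CDH5* made up most of the endothelial sum, with a mean of 3.60 with PBS and 2.52 with PP. *COL1A1* was higher and *CDH5* lower in every PP library than in any PBS library. The part of these marker differences in the results was not tested, and in bulk RNA fewer cells of a type and less RNA per cell cannot be told apart.

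Promoter windows were looked up for the family because *AREG* and *EREG*, neighbours on chromosome 4, differed so widely in level, and because *ERBB4* was the receptor with the largest ratio between treatments, although *ERBB3* differed more in FPKM and on the log2(FPKM + 1) scale. RefSeq, on GRCh38.p14, gave a window for 9 of the 10 genes, all but *ERBB3*. The 250 bases before the start of *AREG* lie at chr4:74444886-74445135 and those of *EREG* at chr4:74364895-74365144, both on the plus strand. The starts of these genes are 79.991 kb apart, and *BTC* begins 349.387 kb beyond *AREG*. The window of *ERBB4* lies at chr2:212538803-212539052 on the minus strand. All 3 are printed 5′ to 3′ in the direction of the gene, with the only motif match in them in capitals.
AREG: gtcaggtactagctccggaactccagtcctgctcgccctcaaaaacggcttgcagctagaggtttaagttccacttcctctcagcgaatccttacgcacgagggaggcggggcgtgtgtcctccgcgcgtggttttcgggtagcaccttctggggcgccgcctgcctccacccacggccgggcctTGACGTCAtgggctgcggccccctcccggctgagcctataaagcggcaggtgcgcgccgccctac
EREG: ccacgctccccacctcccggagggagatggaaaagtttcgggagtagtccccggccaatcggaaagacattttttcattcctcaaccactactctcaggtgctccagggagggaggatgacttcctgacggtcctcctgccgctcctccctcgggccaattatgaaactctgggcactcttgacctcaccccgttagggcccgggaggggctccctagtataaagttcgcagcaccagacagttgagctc
ERBB4: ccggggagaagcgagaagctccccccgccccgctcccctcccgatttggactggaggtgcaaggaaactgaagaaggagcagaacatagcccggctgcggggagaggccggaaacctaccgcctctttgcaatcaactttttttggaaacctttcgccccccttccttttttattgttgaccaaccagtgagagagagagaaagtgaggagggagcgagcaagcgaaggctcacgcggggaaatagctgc

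The capitals mark a cAMP response element (CRE, TGACGTCA), a sequence that CREB and ATF proteins can bind, 65 to 58 bases before the start of *AREG*. It was the only CRE in the 11 windows of the family, and 1.65% of the 35116 windows in the RefSeq table held one. An AP-1 motif (TGANTCA), present in 6.57% of all windows, was found for *EGF*, *EGFR* and *ERBB2*. *EGFR* and *TGFA* each had more than 1 window. The AP-1 matches of *EGFR* lay in its window at chr7:55109589-55109838, and its window at chr7:55018767-55019016 held none. Neither the CHOP-ATF4 composite (TGATGNAAT, 0.888% of windows) nor the E-box (CACGTG, 6.34% of windows) occurred in a window of the family. Both strands were searched and no match overlapped another. GC content was 65.2% in the window of *AREG*, 58.0% in that of *EREG* and 57.2% in that of *ERBB4*, against a median of 58.0% over all windows. A match is a stretch of letters and not a measured binding site.

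*AREG* encodes amphiregulin, an autocrine EGFR ligand. Its FPKM was 2.90, 1.91 and 2.10 in PBS replicates 1, 2 and 3 and 20.9, 19.7 and 22.7 in PP replicates 1, 2 and 3. All PP libraries were therefore far above all PBS libraries, and the mean was 9.16-fold higher, at 21.1 ± 1.48 (SD, n = 3) against 2.30 ± 0.529 (SD, n = 3). These values rest on 69 to 111 counts per PBS library and 736 to 917 per PP library. The difference on the log2(FPKM + 1) scale, where low genes are shrunk towards 0, was 2.75 with a standard error of 0.14 from the replicate SDs. Only 2 of the 11726 genes that averaged an FPKM of 1 or more had a higher difference on that scale, and by the ratio of PP to PBS *AREG* was 25th highest of the 13771 genes with an average of 0.1 or more. In the PBS libraries *AREG* stood at the 39.0th percentile of all listed genes, and in the PP libraries at the 79.7th. The annotation of hg19 lists a second gene, *AREGB*, in the same cluster, while RefSeq on GRCh38.p14 gives that name as a synonym of *AREG*. The table has no *AREGB*, and if reads were mapped to hg19 the level of *AREG* is uncertain to the extent that they were split between the copies.

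*EREG*, which encodes epiregulin and lies beside *AREG*, was almost undetected. It had 1 count in PBS replicate 3, 2 counts in PP replicate 2 and 0 in the other libraries, so no fold change was computed. *BTC*, the gene of betacellulin, lies on the other side of *AREG* and had an FPKM of 1.03, 0.900 and 0.927 with PBS and 1.82, 1.78 and 2.01 with PP. The groups did not overlap, and the mean was 1.96-fold higher with PP, at 1.87 ± 0.124 (SD, n = 3) against 0.953 ± 0.0703 (SD, n = 3). *BTC* reached a mean FPKM of 1 over the 6 libraries only through the PP group. *HBEGF* encodes heparin-binding EGF-like growth factor, which is also the diphtheria toxin receptor. Its FPKM was 1.14, 1.55 and 1.41 with PBS and 1.99, 2.46 and 2.33 with PP, from 83 to 180 counts. The lowest PP library was above the highest PBS library, and the mean was 1.65-fold higher with PP.

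*TGFA*, the gene of transforming growth factor alpha, was lower with PP. Its FPKM was 5.85, 6.03 and 5.98 with PBS and 4.82, 4.75 and 4.90 with PP, with all PP libraries below all PBS libraries and a mean that was 1.24-fold lower. On the log2(FPKM + 1) scale its difference was -0.26 with a standard error of 0.02, and *TGFA* had the smallest relative spread of the ligands. *EGF*, which encodes the founding ligand of the family, had 4 to 15 counts per library. Its FPKM was 0.0372, 0.0730 and 0.0633 with PBS and 0.0215, 0.0818 and 0.0553 with PP, so the groups overlapped and no difference was detectable at this depth.

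**Figure D1:**
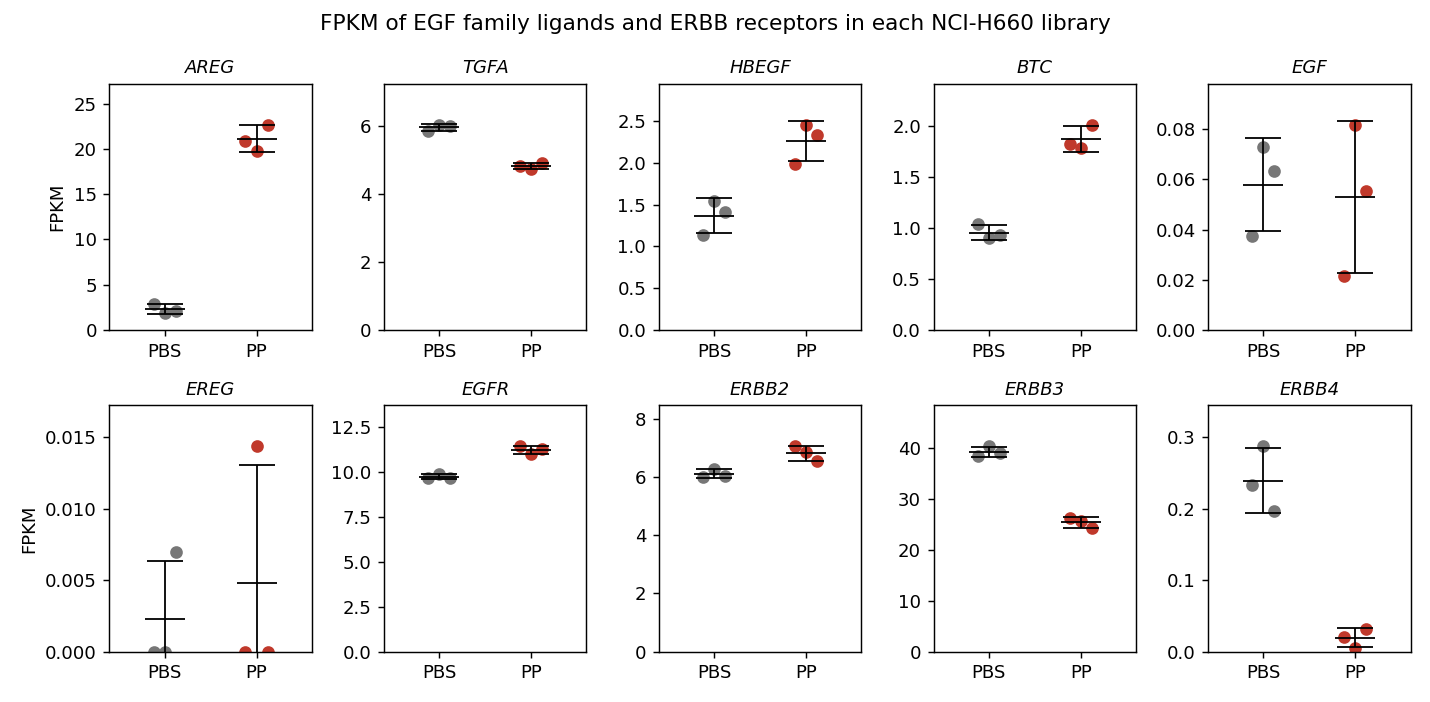
FPKM (y axis, a scale of its own for each gene, starting at 0) of the 10 genes in the 3 PBS libraries (grey) and the 3 PP libraries (red). Points are libraries, horizontal lines are means and bars are 1 SD, with the bars of *EREG* cut at 0. *AREG* with PP lies between 19.7 and 22.7, far above the PBS libraries, *ERBB4* with PP lies at 0.0321 or below, and only *EGF* and *EREG* overlap.

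*ERBB3* was the most abundant transcript of the family in both treatments. Its FPKM was 38.5, 40.3 and 38.9 with PBS and 26.3, 25.6 and 24.2 with PP, from 4388 to 6901 counts per library. Every PP library was below every PBS library, and the mean was 1.55-fold lower, at 25.4 ± 1.07 (SD, n = 3) against 39.2 ± 0.935 (SD, n = 3). On the log2(FPKM + 1) scale the difference was -0.61 with a standard error of 0.04.

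*ERBB4*, whose product binds neuregulins as well as HBEGF and BTC, was low with PBS and lower with PP. Its FPKM was 0.233, 0.287 and 0.197 with PBS, from 89, 104 and 76 counts. With PP it was 0.0211, 0.00536 and 0.0321, from 8, 2 and 13 counts. The groups were far apart on a ratio scale. Counts summed over the 3 libraries of a treatment, per library total, were 12.0-fold lower with PP. The PP side of that ratio rests on only 23 counts. By the ratio of PP to PBS it was the 26th lowest of 13771 genes that averaged an FPKM of 0.1 or more, a filter that *ERBB4* reached only through the PBS group. On the log2(FPKM + 1) scale the same difference was -0.28, since the FPKM of *ERBB4* is far below the pseudocount of 1, and with a pseudocount of 0.1 it was -1.5.

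The receptor kinase genes *EGFR* and *ERBB2* differed least among the receptors. The FPKM of *EGFR* was 9.66, 9.91 and 9.67 with PBS and 11.4, 10.99 and 11.3 with PP, a mean 1.15-fold higher. That of *ERBB2* was 6.005, 6.28 and 6.03 with PBS and 7.04, 6.87 and 6.54 with PP, a mean 1.12-fold higher. For both genes the PP libraries lay above the PBS libraries without overlap, but the gap was narrow for *ERBB2*, between 6.28 and 6.54. The ratio of *EGFR* to *ERBB2* in FPKM was 1.597 ± 0.0164 (SD, n = 3) in PBS libraries and 1.65 ± 0.0654 (SD, n = 3) in PP libraries.

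Over the family, 5 genes were higher and 3 were lower in every PP library than in any PBS library, and 2 overlapped. Of all 17177 listed genes, 59.2% did not overlap in the same sense, so nothing is read from the 8 of 10. The mean FPKM was at least 1 for 7 of the genes and below it for *EREG*, *EGF* and *ERBB4*.

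**Figure D2:**
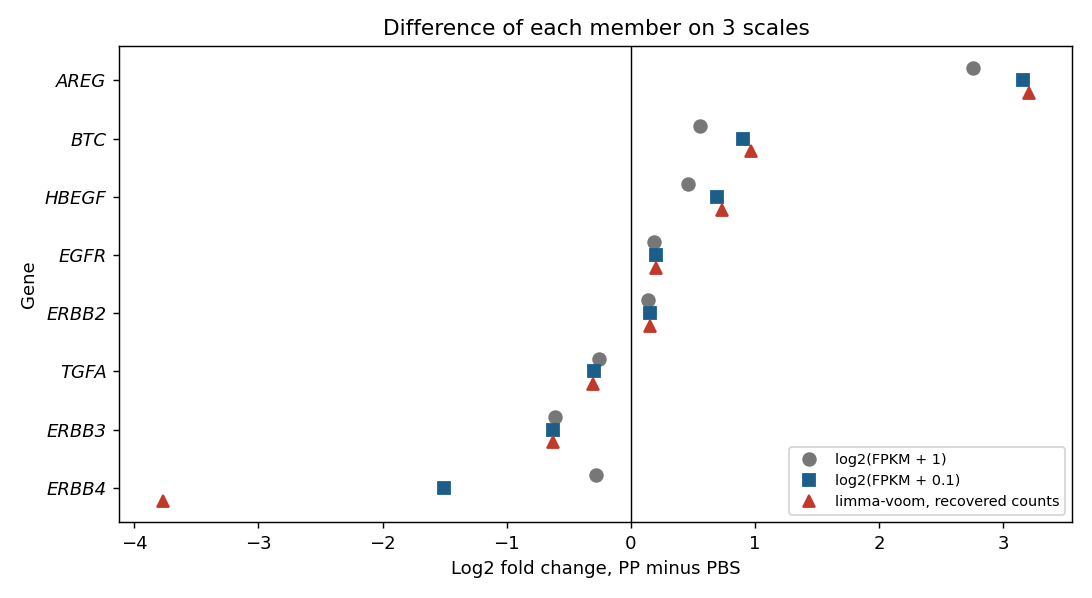
Log2 fold change of PP minus PBS (x axis) for the 8 genes (y axis) whose groups did not overlap, on the log2(FPKM + 1) scale (grey circles), the log2(FPKM + 0.1) scale (blue squares) and from limma-voom on recovered counts (red triangles). *ERBB4* lies at -0.28, -1.5 and -3.77 on the 3 scales and *AREG* at 2.75, 3.16 and 3.21, while the 3 symbols of *EGFR*, *ERBB2*, *TGFA* and *ERBB3* lie close together.

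The order of levels differed between the treatments. With PBS it was *ERBB3*, *EGFR*, *ERBB2*, *TGFA*, *AREG*, *HBEGF*, *BTC*, *ERBB4*, *EGF* and *EREG*, and of the neighbours in that order only *ERBB2* and *TGFA* overlapped in range. With PP *AREG* stood second, below *ERBB3* and above *EGFR*, and the neighbours *HBEGF* and *BTC*, *EGF* and *ERBB4*, and *ERBB4* and *EREG* overlapped. The lowest of these genes rest on so few counts that their order is not settled.

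Summed over the 6 ligands, the total was 10.6 ± 0.281 (SD, n = 3) FPKM in PBS libraries and 30.1 ± 1.65 (SD, n = 3) FPKM in PP libraries. *TGFA* was the main ligand transcript with PBS, with 53.4% to 57.7% of that sum, and *AREG* had 18.2% to 26.5%. With PP *AREG* had 68.5% to 70.9% and *TGFA* 15.3% to 16.5%. Summed over the 4 receptors, the total was 55.3 ± 1.26 (SD, n = 3) FPKM in PBS libraries and 43.4 ± 1.38 (SD, n = 3) FPKM in PP libraries. The share of *ERBB3* was 70.8% to 71.0% with PBS and 57.6% to 58.9% with PP. The share of *EGFR* was 17.5% to 17.8% and 25.3% to 26.8%, and that of *ERBB2* was 10.99% to 11.07% and 15.6% to 15.8%. Receptor FPKM exceeded ligand FPKM 5.20-fold (SD 0.234, n = 3) with PBS and 1.45-fold (SD 0.114, n = 3) with PP. These are shares of transcripts, and protein was not measured in these libraries.

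**Figure D3:**
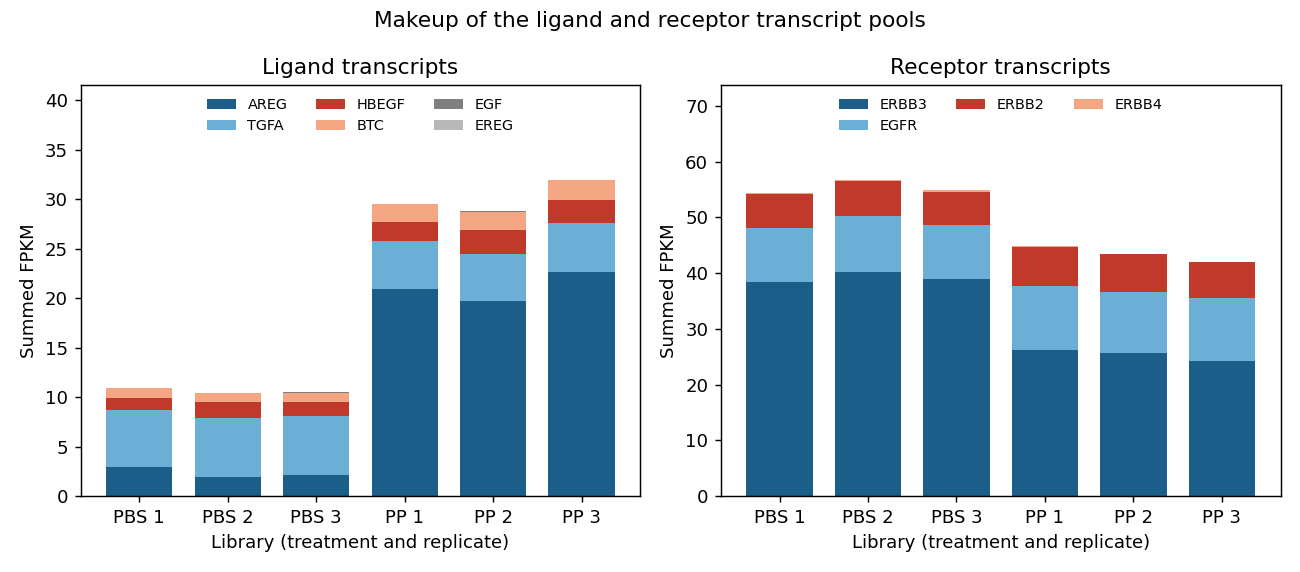
Summed FPKM (y axis) of the 6 ligands (left) and the 4 receptors (right) in each library (x axis), with 1 colour for each gene. *AREG* fills 68.5% or more of the ligand bars with PP and 26.5% or less with PBS, and the receptor bars shorten with PP mainly in *ERBB3*.

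The genes whose profile over the 6 libraries was nearest to that of *AREG* were *MYC*, *NEDD4*, *INHBE*, *ATF3* and *PPP1R15A*. Likeness was the root mean square difference of log2(FPKM + 1), each gene centred on its PBS mean, and it was 0.10 for *MYC*, 0.17 for *NEDD4*, 0.18 for *INHBE*, 0.18 for *ATF3* and 0.21 for *PPP1R15A*. NEDD4 is a ubiquitin ligase, ATF3 a stress-induced bZIP factor and PPP1R15A a regulatory subunit of an eIF2α phosphatase. The mean FPKM of *NEDD4* was 9.57 with PBS and 62.7 with PP. With 2 treatments of 3 libraries, such likeness is mainly a shared size of difference on this scale, where low genes are shrunk. As ratios of mean FPKM the differences were less alike. The ratio of PP to PBS was 9.16 for *AREG*, 7.70 for *MYC*, 6.98 for *INHBE*, 6.94 for *ATF3*, 6.6 for *NEDD4* and 5.91 for *PPP1R15A*.

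The other genes of the pathway were taken from 7 lists of 127 genes and tested with the fit over all 11726 genes. Of the 94 that passed the filter, 45 (47.9%) were higher and 31 (33.0%) were lower with PP at an adjusted p under 0.05 from limma. Over all genes tested, 38.1% were higher and 34.4% were lower, and the median log2 fold change was 0.11 for the pathway genes and 0.022 for all genes. No test of the lists as sets was made, and nothing particular to them is read from these shares. The other EGF family ligands were all below the filter and were not tested. *NRG1*, which encodes the main neuregulin for ERBB3 and ERBB4, had an FPKM of 0.841, 1.03 and 0.932 with PBS and 1.06, 1.14 and 0.962 with PP, with overlapping groups. *EPGN*, *NRG2*, *NRG3* and *NRG4* had at most 11 counts in any library.

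In the list of ligand shedding, 4 of 10 tested genes were higher and 5 were lower with PP. ADAM17 is the main protease for amphiregulin, HB-EGF and TGFα, and *ADAM17* rose from an FPKM of 13.1 ± 0.564 (SD, n = 3) to 23.6 ± 0.707 (SD, n = 3), a log2 fold change of 0.80 (adjusted p = 1.43e-07 from limma). ADAM10, the main protease for EGF and betacellulin, moved in the other direction, and *ADAM10* fell from 15.1 ± 0.173 (SD, n = 3) to 10.1 ± 0.364 (SD, n = 3), a log2 fold change of -0.55 (adjusted p = 1.93e-06 from limma). *RHBDF1* encodes iRhom1, which carries ADAM17 out of the endoplasmic reticulum. Its FPKM was 139.7, 145.1 and 144.9 with PBS and 29.98, 32.8 and 28.9 with PP, a log2 fold change of -2.19 (adjusted p = 1.63e-10 from limma). *RHBDF2*, which encodes the related iRhom2, was low and rose from a mean FPKM of 1.45 to 2.19 (log2 fold change 0.37, adjusted p = 0.00376 from limma). *FRMD8*, whose product binds the iRhoms, fell by 0.41 on the log2 scale (adjusted p = 7.93e-05 from limma). *RHBDF2* and *FRMD8* were singled out after their values were seen.

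Among adaptors and the PI3K arm, 12 of 26 tested genes were higher and 10 were lower. The adaptor gene *GAB2* rose from an FPKM of 29.5 ± 0.349 (SD, n = 3) to 84.9 ± 3.24 (SD, n = 3), a log2 fold change of 1.49 (adjusted p = 4.38e-10 from limma). *SHC2* and *GRB10*, which encode other adaptors, rose by 1.0 and 0.99 on the log2 scale (adjusted p = 6.04e-08 and 1.2e-08 from limma). The kinase gene *AKT1*, also singled out after its values were seen, fell by 0.92 on the log2 scale (adjusted p = 3.75e-08 from limma). In the RAS-RAF-MEK-ERK cascade 11 of 21 tested genes were higher and 7 were lower. The kinase genes *RPS6KA2* and *BRAF* and the scaffold gene *KSR1* rose by 1.02, 0.76 and 0.96 on the log2 scale (adjusted p = 1.62e-07, 1.15e-06 and 1.76e-07 from limma).

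Of the genes that inhibit receptors or direct their degradation, 10 of 21 tested were higher and 5 were lower. *LRIG1*, which encodes a membrane protein that lowers ERBB receptor levels, fell from an FPKM of 22.1 ± 0.709 (SD, n = 3) to 11.7 ± 0.838 (SD, n = 3), a log2 fold change of -0.87 (adjusted p = 2.67e-07 from limma). The phosphatase gene *PTPN1* fell by 0.89 on the log2 scale (adjusted p = 9.02e-09 from limma). *USP8*, the gene of a deubiquitinase that acts on endocytosed receptors, rose by 0.90 on the log2 scale (adjusted p = 3.75e-08 from limma).

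Transcripts that report on ERK signalling moved both ways, as did all tested genes, of which 38.1% were higher and 34.4% were lower. In the ERK feedback list 2 of 5 tested genes were higher and 1 was lower. The filter left 6 genes of this list untested. Of these, *SPRY4* (mean FPKM 1.07 with PBS and 0.529 with PP) was lower in every PP library than in any PBS library. *SPRY1* (0.562 and 0.926) was higher in the same sense, and the others overlapped. *SPRY1* and *SPRY4* were named after their values were seen. *SPRY2* rose from an FPKM of 0.803 to 1.80 (log2 fold change 0.65, adjusted p = 0.000187 from limma) and reached the filter only through the PP group. The phosphatase gene *DUSP7* rose by 0.23 and *DUSP4* fell by 0.20 on the log2 scale (adjusted p = 0.00151 and 0.0308 from limma), and *DUSP6*, named after its values were seen, had a log2 fold change of 0.11 (adjusted p = 0.191 from limma). In the list of ERK-responsive transcripts 6 of 11 tested genes were higher and 3 were lower. Among the higher genes, *ETV1* (mean FPKM 0.837 with PBS and 1.29 with PP) reached the filter only through the PP group. The filter left 10 genes of this list untested. Of these, *PHLDA1* (1.18 and 0.695) and *ETV4* (0.585 and 0.311) were lower in every PP library than in any PBS library, and the others overlapped. *ETV1*, *PHLDA1* and *ETV4* were named after their values were seen. *KLF6*, the gene of a zinc finger factor, rose from an FPKM of 13.4 ± 0.133 (SD, n = 3) to 38.1 ± 1.998 (SD, n = 3), a log2 fold change of 1.44 (adjusted p = 1.71e-09 from limma). *EPHA2*, which encodes an ephrin receptor, fell from 7.89 ± 0.517 (SD, n = 3) to 2.28 ± 0.261 (SD, n = 3), a log2 fold change of -1.44 (adjusted p = 5.39e-08 from limma). *EGR1*, an immediate early gene, fell from a mean FPKM of 1.89 to 0.999, or by 0.53 on the log2 scale (adjusted p = 0.000873 from limma). With its PP mean just below 1, it reached the filter only through the PBS group.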

How the data were processed

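RNA from 6 libraries of NCI-H660 cells was sequenced by the authors after poly(A) selection. The authors deposited 1 table of FPKM by gene symbol, with 17177 genes and no repeated symbol. The methods name hg19, Bowtie, RSEM, Cufflinks and HTSeq-count, and the submitters' processing notes name GRCh38, fastp, HISAT2 and HTSeq. Which of these made the table was not given in the sources used here, so coordinates are given for RefSeq promoter windows alone.

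From the FPKM values, log2(FPKM + 1) was computed and genes averaging an FPKM of 1 or more across all libraries were tested with limma 3.58.1 in R 4.3.3 (lmFit, eBayes with an intensity trend), with Benjamini-Hochberg adjustment over all 11726 genes. Adjusted p-values under 0.05 were called. Standard errors of the 10 family genes come from the replicate SDs. Whole counts were recovered as multiples of 1 step per gene, with 1 relative total per library, for 17177 genes, and are the smallest set that fits. The steps were tested on simulated data. Python 3.11.15, numpy 2.4.6, pandas 2.3.3 and scipy 1.17.1 were used.

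The family, the pathway lists and the marker lists were chosen with earlier results of these data known. Named genes were the 10 family genes, the other EGF family ligands, the 3 or fewer genes with the largest absolute log2 fold change among the called genes of each other list, the 5 genes nearest to *AREG* in profile, and the markers. A few others were named after their values were seen, as the text says. The results for some genes are not reported here. *KLK2* and *KLK3* were listed as luminal markers, but the table has no row for them. Alternatives changed the filter, the pseudocount, the eBayes trend, the scaling, the replicate block or the set of libraries. Another, limma-voom on recovered counts, was added after seeing the data. The labels give no batch. Reads, splicing and the other experiments of the study were not analysed here.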

Additional observations from a re-analysis of the deposited data

How the results depend on the processing

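Over the alternatives, the number of genes called ranged from 3529 to 4736 for higher with PP and from 3031 to 4458 for lower, against 4464 and 4032, and 40 to 46 pathway genes were higher and 24 to 35 were lower, against 45 and 31. Leaving out each library in turn gave 44 to 46 and 25 to 28 pathway genes. Deviations from the treatment mean correlated at -0.21, -0.014 and -0.13 for libraries with the same replicate number. For libraries with different numbers the correlations ran from -0.067 to 0.18. No pairing by number was visible, but 3 libraries per treatment cannot exclude it, and the labels do not state it. With the replicate block 45 and 29 pathway genes were called. The log2 fold change kept its sign under every alternative run for *AREG* (2.67 to 3.21), *BTC* (0.52 to 0.97), *HBEGF* (0.39 to 0.73), *EGFR* (0.17 to 0.21), *ERBB2* (0.12 to 0.16), *TGFA* (-0.30 to -0.25), *ERBB3* (-0.64 to -0.58) and *ERBB4* (-3.77 to -0.25). The ends furthest from 0 came from limma-voom on recovered counts for *AREG*, *BTC*, *HBEGF*, *EGFR*, *TGFA* and *ERBB4*. FPKM plus a pseudocount of 1 shrinks differences, most of all for low genes. For *EGF* (-0.059 to 0.015) and *EREG* (-0.0033 to 0.032) the sign changed when 1 library was left out. Depth limits *EREG*, *EGF* and *ERBB4* with PP, at 0 to 15 counts per library.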

Other observations

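The 8 protein-coding genes beside *AREG* were taken 5 to each side in RefSeq order, without *EREG* and *BTC*. The list was chosen by position after the value of *AREG* was known. Of the 6 that passed the filter, 2 were higher, 2 were lower and 2 did not pass an adjusted p of 0.05 from limma. Over all 11726 tested genes 38.1% were higher and 34.4% were lower, so nothing is read from these counts. The chemokine gene *CXCL2* fell from a mean FPKM of 17.8 to 14.8 (log2 fold change -0.26, adjusted p = 0.00328 from limma) and *PARM1* fell from 14.2 to 10.3 (-0.43, adjusted p = 3.29e-05). *RCHY1*, the gene of a ubiquitin ligase, rose from 6.95 to 9.92 (0.46, adjusted p = 2.98e-05) and *THAP6* from 3.98 to 6.29 (0.54, adjusted p = 6.79e-05). *CXCL3* had a log2 fold change of -0.053 (adjusted p = 0.592) and *MTHFD2L* of 0.10 (adjusted p = 0.315). *EPGN* and *ODAPH* were below the filter. *AREG* itself had a log2 fold change of 2.75.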
